A study of Sus scrofa with 12 samples.

Results

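miR-126 is a microRNA known from the endothelial cells that line blood vessels. Its 2 mature products, miR-126-3p and miR-126-5p, were read in testis of adult Duroc and Large white pigs. Members were the names in the small RNA files that read miR-126 once the species prefix and the arm suffix are dropped. This rule gave 2 names among 765, each on a single row, and both passed the filter on low values, an RPM of at least 1 in at least 3 of the 6 libraries. RPM is the reads of a name per 1000000 reads of its library, as deposited. All animals were males aged 12 months, no genotype or treatment is given, and each breed had 3 small RNA libraries (Western Duroc libraries 1 to 3 and Large white libraries 1 to 3). The third breed named in the series design, Diannan small-ear, was not used here. Nothing in the labels says that the libraries of a breed came from separate animals, so p-values measure the spread between these libraries, which may be technical.

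A microRNA is cut from a hairpin precursor. The Dicer enzyme releases a duplex of a 5p and a 3p strand, and an Argonaute protein keeps one of them to repress mRNAs that match its seed. miR-126 is encoded inside EGFL7, a gene of a protein secreted by endothelium. Its 3p strand is known to repress SPRED1 and PIK3R2, inhibitors of growth factor signalling, and thereby to favour vascular integrity. Its 5p strand is known to act in endothelial cells on DLK1, an inhibitor of Notch signalling. In testis, vessels run through the interstitium between the seminiferous tubules. On Sscrofa11.1, RefSeq places MIR126 at 1108695 to 1108767 and EGFL7 at 1107088 to 1119033 of sequence that is not assigned to a chromosome. The table does not name that sequence, and that both genes lie on the same one was assumed from their adjacent rows and nested coordinates. Under that assumption, the span of MIR126 lies inside that of EGFL7 and starts 1607 bases from its lower end. Strand and exons were not given there. The RNA files of the series name transcripts without genes, so EGFL7 and endothelial marker genes were not analysed here, and whether the reads came from endothelium was not tested.

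The 3p arm was the abundant product and was among the 16 most abundant small RNA names in each library. Of 765 names it stood 14th in Duroc libraries 1 and 3 and 16th in the other 4 libraries. The read counts of miR-126-3p were 72008, 33619 and 76000 across the Duroc replicates 1 to 3, against 16134, 26187 and 14153 across Large white replicates 1 to 3. Those of miR-126-5p were 4999, 1953 and 4744 in Duroc and 1250, 2079 and 1006 in Large white. The Duroc libraries were the deeper ones, with 3473206 to 13209412 reads against 1481386 to 2483001, so the read counts themselves do not compare the breeds. Duroc libraries 1 and 3 stood apart in composition, with TMM scale factors of 0.464 and 0.792 against 1.15 to 1.36 in the other 4. A floor of 3 reads corresponds to 0.227 to 2.03 RPM, far below both arms.

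**Figure D1:**
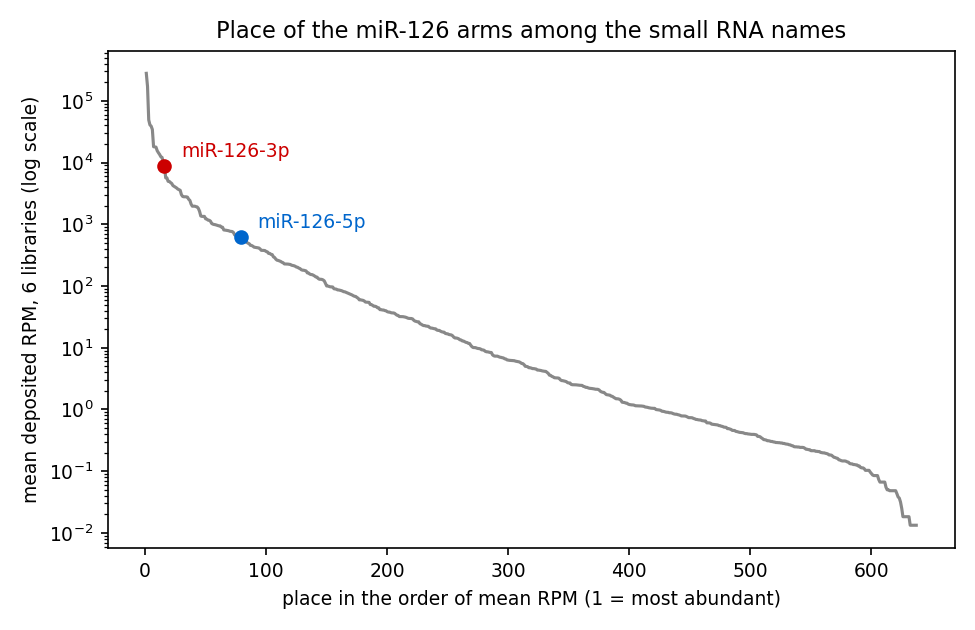
Mean deposited RPM over the 6 libraries (log scale) against the place of each small RNA name in that order, with 1 as the most abundant. miR-126-3p is 16th with a mean of 8951 RPM and miR-126-5p is 79th with a mean of 628 RPM.

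By mean RPM over the 6 libraries, miR-126-3p stood 16th with 8951 RPM. The names next above it were miR-34c, a microRNA of meiotic and later germ cells, with 12137 RPM, and miR-202-5p, a gonadal microRNA, with 10146 RPM. Each of these exceeded miR-126-3p in 4 of the 6 libraries only, so their order was not kept in every library. Below it came let-7c with 5659 RPM and miR-140-3p with 5656 RPM, which were under miR-126-3p in all 6 libraries. miR-126-5p stood 79th with 628 RPM, and its neighbours could not be ordered. miR-195 (651 RPM) and miR-23a (635 RPM) exceeded it in 3 of the 6 libraries each, and miR-20a-5p (627 RPM), which follows it by mean, exceeded it in 4.

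No difference between the breeds passed the test for either arm, and the direction of the difference depended on how the libraries were scaled. miR-126-3p had 5451, 9680 and 8295 RPM across the Duroc replicates 1 to 3, against 10891, 10547 and 8841 RPM across Large white replicates 1 to 3. Duroc library 1 was the lowest and the breeds overlapped, since Duroc library 2 exceeded Large white library 3. The means were 7809 ± 2156 RPM for Duroc testis against 10093 ± 1098 RPM for Large white testis (mean ± SD, 3 libraries a breed). On the log2(RPM + 1) scale the difference, Duroc minus Large white, was -0.40 (two-sided exact permutation test, p = 0.2).

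miR-126-5p had 378, 562 and 518 RPM across the Duroc replicates 1 to 3, against 844, 837 and 628 RPM across Large white replicates 1 to 3. All Duroc libraries were below all Large white libraries in this unit. The means were 486 ± 95.9 RPM for Duroc testis against 770 ± 123 RPM for Large white testis (mean ± SD, 3 libraries a breed). The difference on the log2(RPM + 1) scale was -0.67 (two-sided exact permutation test, p = 0.1, the smallest p that 3 against 3 libraries allow). Of the 421 names tested, 102 did not overlap between the breeds in deposited RPM, or 24.2%, so the lack of overlap of 1 of the 2 arms is read against that share.

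RPM is a share of the library, and 1 microRNA took very different shares. The shares given here are of reads with each name counted once, whereas deposited RPM is scaled to the sum over all 845 entries. miR-143-3p, known from smooth muscle, held 51.5%, 25.5% and 35.5% of these reads across the Duroc replicates 1 to 3. In Large white libraries 1 to 3 it held 18.9%, 21.96% and 29.5%. With its reads left out of the totals, miR-126-3p had 11905, 14546 and 13752 reads per 1000000 across the Duroc replicates 1 to 3, against 15154, 15293 and 13936 across those of Large white. The highest value of miR-126-3p was then 1.28 times the lowest, and the breeds still overlapped. In deposited RPM, which has another total, the highest was 1.998 times the lowest. With each name counted once and miR-143-3p kept in the total, the share of miR-126-3p ran from 0.577% to 1.23%. miR-126-5p had 826, 845 and 858 reads per 1000000 in Duroc and 1174, 1214 and 991 in Large white on this scale, again without overlap. Of the 421 names, 92 did not overlap on this scale, or 21.9%. The scale was chosen after seeing the data.

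**Figure D2:**
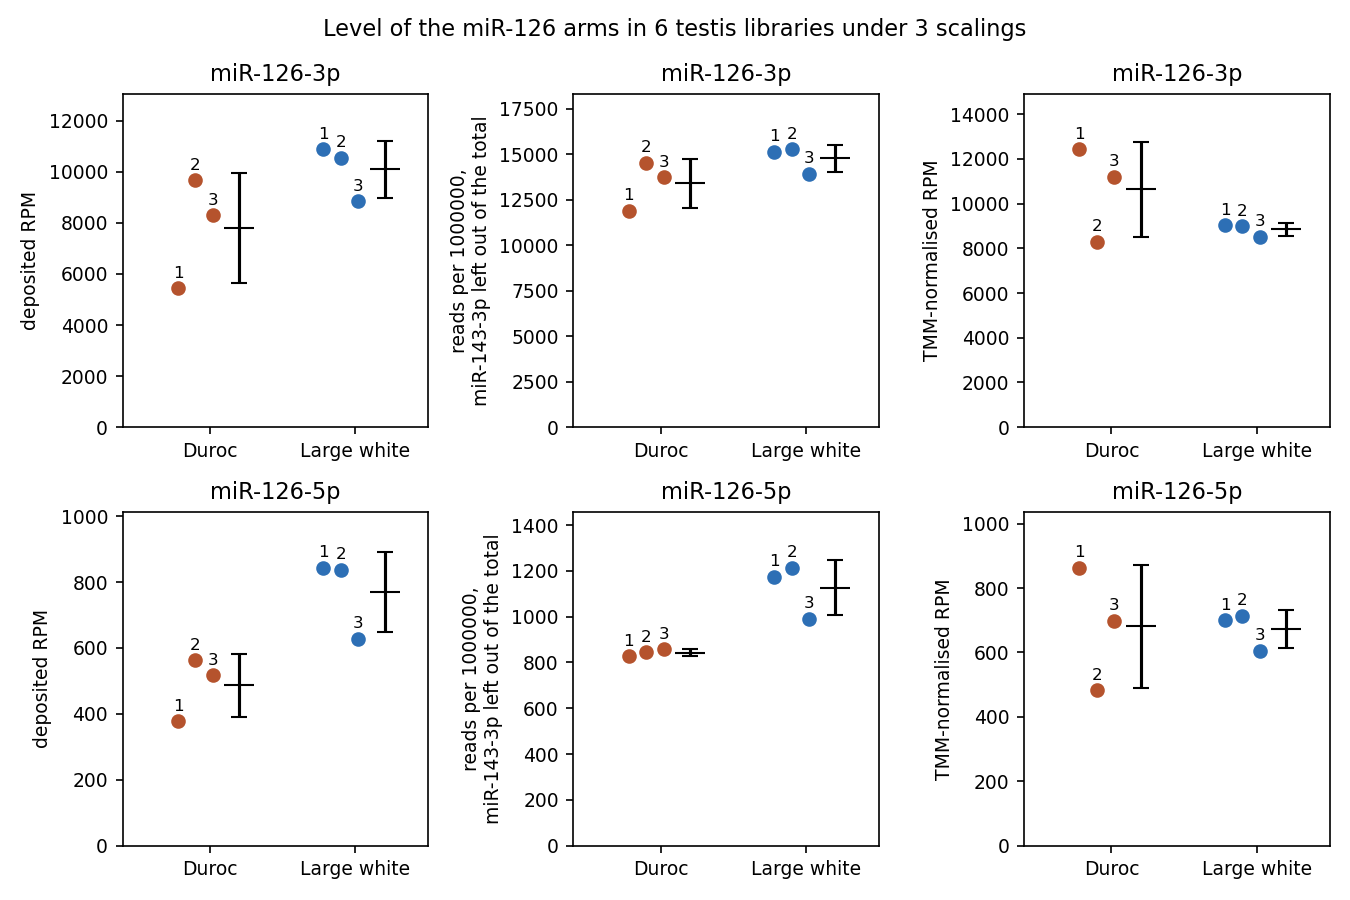
Level of each arm (rows) in each library (points, numbered by replicate) as deposited RPM, as reads per 1000000 with miR-143-3p left out of the total, and as TMM-normalised RPM, with the mean and SD of 3 libraries beside the points. Duroc library 1 is the lowest for both arms in deposited RPM and the highest in TMM-normalised RPM.

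TMM scaling, which sets the libraries so that most names show little difference, turned the order of the means of miR-126-3p. It left those of miR-126-5p nearly equal. miR-126-3p had 12437, 8295 and 11195 TMM-normalised RPM across the Duroc replicates 1 to 3, against 9037, 8991 and 8524 across those of Large white. Duroc libraries 1 and 3 were the highest and Duroc library 2 the lowest of the 6. The means were 10642 ± 2126 for Duroc testis against 8850 ± 284 for Large white testis (mean ± SD, 3 libraries a breed). miR-126-5p had 863, 482 and 699 TMM-normalised RPM across the Duroc replicates 1 to 3, against 700, 714 and 606 across those of Large white. The means were 681 ± 191 and 673 ± 58.7 (mean ± SD, 3 libraries a breed). On the log2 scale of these values the difference, Duroc minus Large white, was 0.25 for miR-126-3p and -0.02 for miR-126-5p (two-sided exact permutation test, p = 0.4 and 0.8). The Large white libraries lay inside the range of the Duroc libraries for both arms on this scale. Of the 421 names, 98 did not overlap between the breeds, or 23.3%, and neither arm was among them.

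By edgeR's quasi-likelihood test with TMM scaling, the log2 fold change (Duroc minus Large white) of miR-126-3p was 0.27 (SE 0.25, adjusted p = 0.612). That of miR-126-5p was 0.02 (SE 0.27, adjusted p = 0.975). The test called 0 of the 421 names, or 0%, with 60 at an unadjusted p under 0.05. DESeq2 called 14 and limma on log2(RPM + 1) called 0, and neither arm was called by any of them. With library totals in place of TMM, the log2 fold changes were -0.42 (SE 0.28, adjusted p = 0.5) for miR-126-3p and -0.71 (SE 0.36, adjusted p = 0.402) for miR-126-5p. The median over all 421 names was 0.06 with TMM and -0.56 with library totals. Relative to that median, miR-126-3p lay above with both scalings and miR-126-5p below with both.

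**Figure D3:**
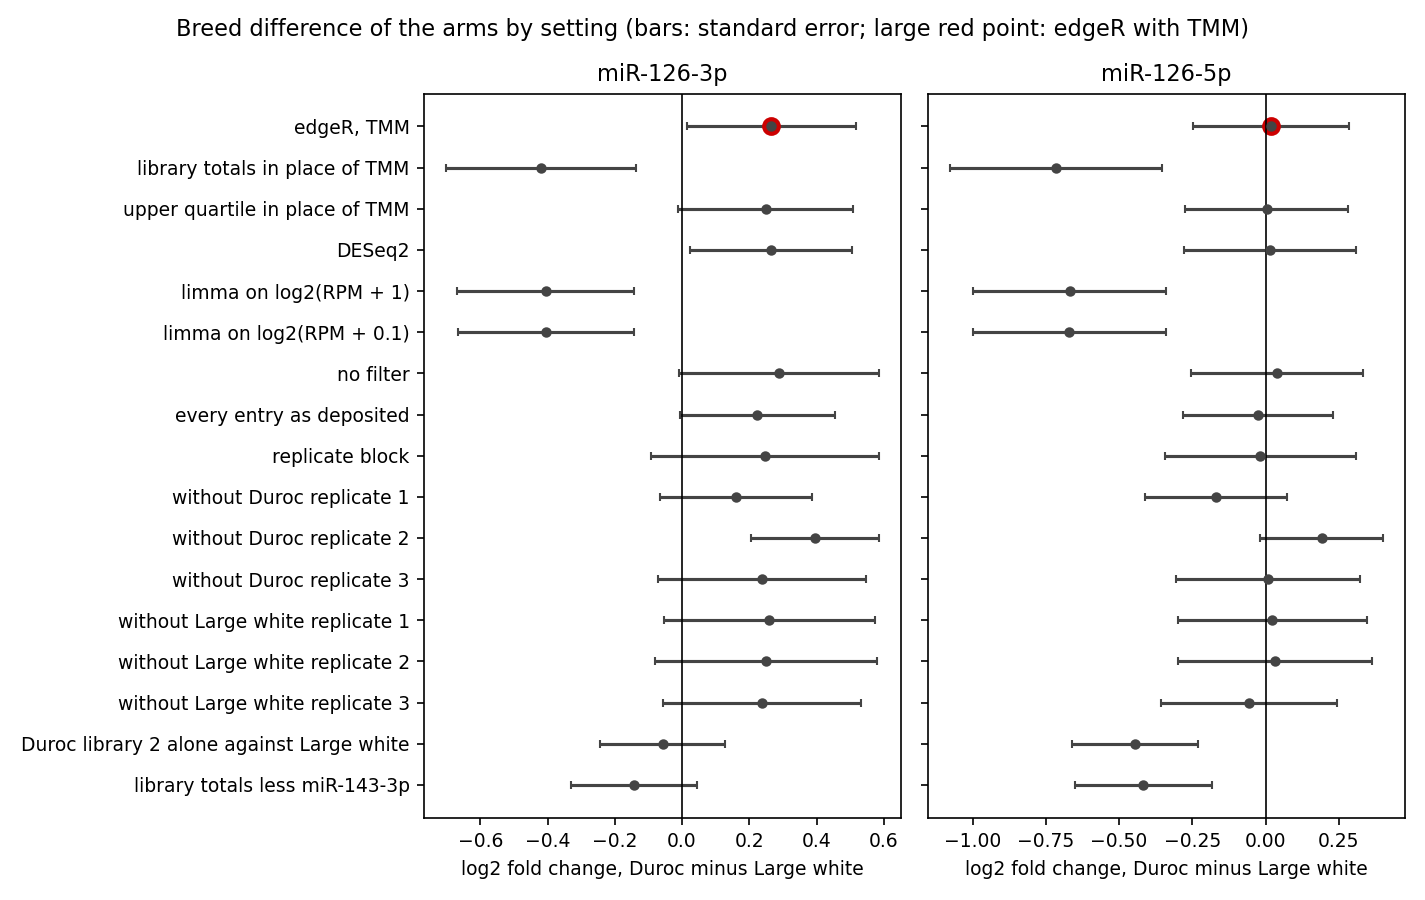
Log2 fold change of each arm, Duroc minus Large white, with its standard error, under each setting; the large red point is edgeR with TMM scaling. miR-126-3p runs from -0.42 with library totals to 0.39 without Duroc library 2, and miR-126-5p from -0.71 to 0.19 under the same settings.

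The sign of these differences rested in part on Duroc libraries 1 and 3. With Duroc library 2 as the sole Duroc library, the log2 fold change was -0.06 (SE 0.19) for miR-126-3p and -0.45 (SE 0.22) for miR-126-5p, with a spread taken from Large white only, and neither passed (edgeR adjusted p = 0.942 and 0.411). Without Duroc library 2 the values were 0.39 (SE 0.19) and 0.19 (SE 0.21), which did not pass either (edgeR adjusted p = 0.189 and 0.575). In bulk tissue, fewer cells of a type and less RNA per cell cannot be told apart. Levels of miRNAs known from other cells are therefore given beside the arms. miR-34c had 1216 and 3080 RPM in Duroc libraries 1 and 3, whereas Duroc library 2 had 18510 RPM and Large white ranged from 12684 to 19235 RPM. It was the sole entry found of the 3 fixed for meiotic and later germ cells. The vessel wall smooth muscle list held 4 names, the arms of miR-143 and miR-145. Whether their reads came from vessel wall was not tested. These 4 names summed to 488184, 229807 and 333928 RPM across the Duroc replicates 1 to 3, against 170106 to 267661 RPM in Large white. No member was at 0. Nearly all of each sum was miR-143-3p, with 486472, 228130 and 332348 RPM in Duroc and 167642 to 264849 RPM in Large white. The other members, miR-145-5p, miR-145-3p and miR-143-5p, had lower means in Duroc in this unit. These were 1259 against 1975, 306 against 420 and 91.3 against 103 RPM. The 7 blood cell names summed to 1618 to 5091 RPM in Duroc and 2324 to 5083 RPM in Large white, also with no member at 0. Most of these sums was miR-451, with 1506 to 4860 RPM in Duroc and 2097 to 4619 RPM in Large white. They therefore say little about the other names, of which miR-144 had a higher mean RPM in Duroc and the rest a lower one. The part of these cells in the levels of the arms was not tested.

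The ratio of the 2 arms does not depend on the scaling, since both are read in the same library. For each read of miR-126-5p there were 14.4, 17.2 and 16.0 reads of miR-126-3p across the Duroc replicates 1 to 3, against 12.9, 12.6 and 14.1 in Large white libraries 1 to 3. The 5p arm thus held 6.49% of the reads of both arms in Duroc library 1 (95% Wilson interval 6.32% to 6.67%), 5.49% in library 2 (5.26% to 5.73%) and 5.88% in library 3 (5.72% to 6.04%). In Large white it held 7.19% in library 1 (6.82% to 7.58%), 7.36% in library 2 (7.06% to 7.67%) and 6.64% in library 3 (6.25% to 7.04%). Each Duroc library was below each Large white library, but the intervals of Duroc library 1 and Large white library 3 overlapped. Intervals cover counting error only, and no molecular identifiers are named in the sources used here.

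**Figure D4:**
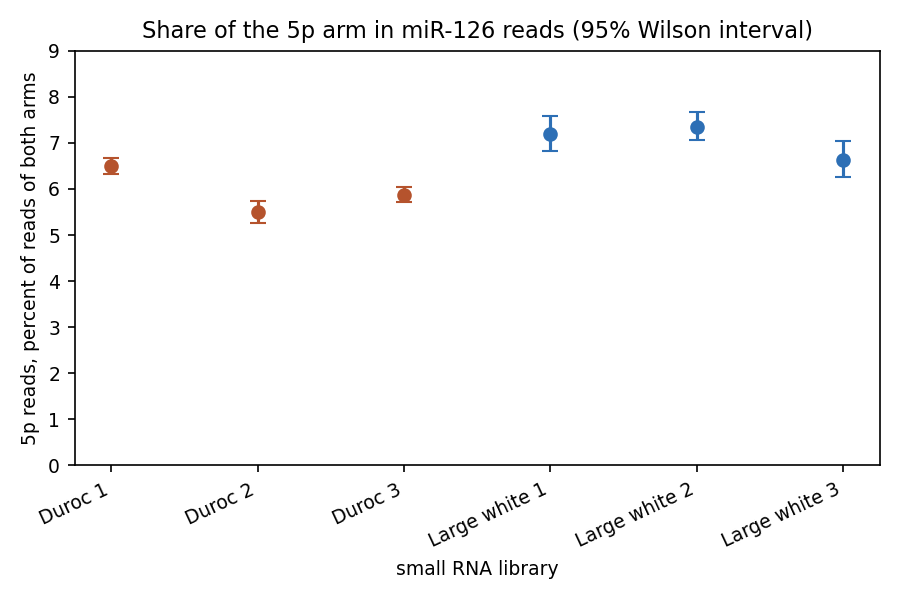
Reads of miR-126-5p as a percent of the reads of both arms in each library, with 95% Wilson intervals. The Duroc libraries lie between 5.49% and 6.49% and the Large white libraries between 6.64% and 7.36%.

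The share of the 5p arm was 5.95 ± 0.51% for Duroc testis against 7.06 ± 0.38% for Large white testis (mean ± SD, 3 libraries a breed). This difference did not pass the test. By edgeR's arm by breed term, the log2 ratio of 5p over 3p, Duroc minus Large white, was -0.27 (SE 0.20, adjusted p = 0.515 over 65 pairs of arms). limma on the log2 ratio gave -0.27 with a 95% interval of -0.78 to 0.25, which holds 0 as well as a larger difference. The exact permutation test of the ratio gave p = 0.1, two-sided, the smallest possible here. Leaving out any 1 library gave estimates from -0.33 to -0.21, and the estimate was -0.39 (SE 0.24) with Duroc library 2 alone against Large white.

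Arm ratios without overlap were also found among the other miRNAs. Of the 65 pairs tested, edgeR called 0, or 0%, with 8 at an unadjusted p under 0.05, and limma called 0. The ratio of the arms did not overlap between the breeds in 13 pairs, or 20%, miR-126 among them. The breed difference was larger in size than that of miR-126 in 34 of the 65 pairs, and the median size was 0.35 on the log2 scale.

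**Figure D5:**
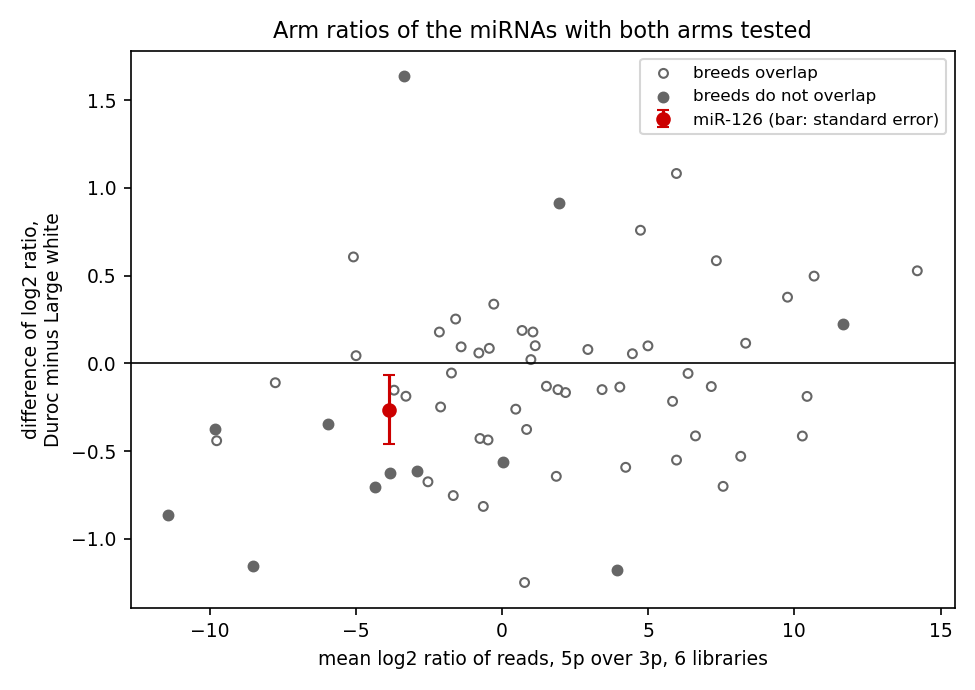
Difference of the log2 ratio of 5p over 3p reads between the breeds against its mean over the 6 libraries, for the 65 miRNAs with both arms tested; filled points are pairs without overlap between the breeds. miR-126 lies at a mean of -3.85 and a difference of -0.27, with its standard error.

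The 3p arm is the larger one in miR-126, as in 28 of the 65 pairs. The larger arm held 93.5% of its reads on average, close to the median of 93.2% over the pairs, and 36 pairs had a larger arm with over 90%. miR-126 was 9th by reads of both arms together. The 5 pairs with the most reads were more one-sided. miR-143, miR-148a and miR-27b had 0.04%, 0.11% and 0.12% of their reads on the 5p arm. miR-99a and miR-21 had 99.97% and 99.99% on it. Among these 5, the smaller arm had the lower estimate in Duroc relative to the larger one in each, by 0.86, 0.38, 0.44, 0.23 and 0.53 on the log2 scale in that order, and none passed (edgeR adjusted p = 0.0959 for miR-143 and 0.462 to 0.612 for the others). The smaller arm had 57 reads over the 6 libraries in miR-21 and 464 in miR-99a. Over all 65 pairs the smaller arm was relatively lower in Duroc in 35 and higher in 30. Among the 21 pairs with at least 100 reads of each arm in each library, it was lower in 10 and higher in 11.

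The ratio of the arms of miR-126 varied little from library to library. The SD of its log2 value over the 6 libraries was 0.18. Among the 21 pairs with at least 100 reads of each arm in each library, this was the 4th smallest, after miR-374a (0.11), miR-423 (0.14) and miR-30a (0.14), and the median of the 21 was 0.27. This is a description without a test.

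Other miRNAs followed the 3p arm more closely than its own partner did. Likeness was measured as the SD over the 6 libraries of the log2 ratio of reads to those of the arm, among 129 named miRNAs with a mean of at least 100 RPM. A smaller SD means a closer course, and the libraries share depth and composition. The closest to miR-126-3p were miR-148b-3p (0.08), let-7e (0.09), miR-1271-5p (0.10), miR-98 (0.11) and miR-148a-5p (0.11), against a median of 0.37. miR-98 and let-7e belong to the let-7 family, and miR-148b-3p to the family of miR-148 and miR-152. miR-148b-3p had 1181, 2232 and 1782 RPM across the Duroc replicates 1 to 3, against 2357, 2053 and 1875 RPM across those of Large white. It was lowest in Duroc library 1 like miR-126-3p, which follows from its choice by likeness to that arm. The partner arm miR-126-5p came 12th.

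The closest to miR-126-5p were miR-181a (0.11), miR-10b (0.14), miR-497 (0.14), miR-186-5p (0.15) and miR-455-5p (0.15), against a median of 0.41, and miR-126-3p came 9th. miR-181a had 668, 1183 and 1007 RPM across the Duroc replicates 1 to 3, against 1559, 1520 and 1331 RPM across those of Large white. Its Duroc libraries lay below the Large white ones in this unit and overlapped with them under TMM. Since miR-181a was picked for its likeness to miR-126-5p, this repeats the course of that arm and is not a separate observation. No name was among the closest 5 of both arms. Without Duroc libraries 1 and 3, 1 of the 5 names of each arm was again among the closest 5 over the remaining 4 libraries. Other pairs of libraries were not left out, so whether this order depends on those 2 in particular was not tested. miR-9 was the least alike of the 129 for both arms (1.67 and 1.63).

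Other miRNAs with a known part in vessel growth were described from lists. Of 12 base names known to promote angiogenesis, 15 names were in the files and 14 were tested. The estimate was above 0 in 12 and below 0 in 2, with a median log2 fold change of 0.32 with TMM and -0.37 with library totals, against 0.06 and -0.56 over all 421 names. With TMM, the estimate was above 0 in 224 of all 421 names and below 0 in 197. The 14 include both arms of miR-21 and of miR-27b, so they are not independent, and the split was not tested. None passed edgeR's test, and 1 of the 14, miR-27a, did not overlap between the breeds on the TMM scale, against 23.3% of all names. It lay above Large white, with a log2 fold change of 1.23 (SE 0.36, edgeR adjusted p = 0.193). In deposited RPM 4 of the 14 did not overlap, against 24.2%, with miR-27a above Large white and the others below it. The most abundant were miR-21-5p and miR-10b, the latter known to repress FLT1 in endothelium. miR-21-5p had 37233 ± 3839 RPM for Duroc testis against 40639 ± 9426 RPM for Large white testis (mean ± SD, 3 libraries a breed), but 54811 ± 23120 and 35456 ± 5897 TMM-normalised RPM. Its breeds overlapped on both scales, and its log2 fold change of 0.63 with TMM (SE 0.37) did not pass (edgeR adjusted p = 0.392). miR-10b had 22296, 28473 and 27133 RPM across the Duroc replicates 1 to 3, against 45582, 42117 and 40428 RPM across those of Large white, without overlap, but 37295 ± 13248 and 37567 ± 1553 TMM-normalised RPM (mean ± SD, 3 libraries a breed), with overlap. miR-126-5p likewise did not overlap in deposited RPM and overlapped with TMM.

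Of 11 base names known to restrain angiogenesis, 16 names were in the files, of which miR-155-3p and miR-218-3p had no read in any library, and 14 were tested. The estimate was above 0 in 7 and below 0 in 7, with a median of 0.01 with TMM and -0.51 with library totals. None passed, and 5 of the 14 did not overlap on the TMM scale, against 23.3% of all names, with miR-218 and miR-218-5p, which hold the same reads, above Large white and miR-16, miR-92a and miR-424-5p below it. In deposited RPM 4 of the 14 did not overlap, against 24.2% of all names, with miR-24-3p above Large white and the others, miR-16 among them, below it. The most abundant were miR-100 and miR-24-3p. miR-100, which represses MTOR, had 17957 ± 486 RPM for Duroc testis against 17633 ± 658 RPM for Large white testis (mean ± SD, 3 libraries a breed), but 26652 ± 12175 and 15585 ± 1871 TMM-normalised RPM. Its breeds overlapped on both scales, and its log2 fold change of 0.77 with TMM (SE 0.36) did not pass (edgeR adjusted p = 0.353). miR-24-3p, which represses GATA2 in endothelium, had 4477, 4399 and 5045 RPM across the Duroc replicates 1 to 3, against 3640, 3965 and 3914 RPM across those of Large white. All its Duroc libraries were above all Large white libraries in that unit, opposite to miR-126-5p, but they overlapped with TMM, and its log2 fold change of 1.03 with TMM (SE 0.36) did not pass (edgeR adjusted p = 0.250).

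In the blood cell list, miR-451 of red cells and miR-486 were the most abundant. miR-451 had 2583, 4860 and 1506 RPM across the Duroc replicates 1 to 3, against 2097, 4619 and 2470 RPM across those of Large white, so the breeds overlapped widely. Its means with TMM were 4030 ± 1934 and 2686 ± 1130 TMM-normalised RPM (mean ± SD, 3 libraries a breed), also with overlap. miR-486 had 24.2, 75.2 and 27.8 RPM in Duroc and 64.1, 327 and 71.8 RPM in Large white. None of the 7 names passed, with 4 above 0, 3 below 0 and a median log2 fold change of 0.14 with TMM and -0.55 with library totals. On the TMM scale 2 of the 7 did not overlap between the breeds, against 23.3% of all names, and in deposited RPM 2 of the 7, against 24.2%. The 4 smooth muscle names, led by miR-143-3p and miR-145-5p, did not pass either, with a median of 0.39 with TMM and -0.37 with library totals. In deposited RPM 1 of the 4 did not overlap between the breeds, against 24.2% of all names. On the TMM scale it was 0 of the 4, against 23.3%. miR-145-5p, the 1 without overlap, had 1259 ± 148 RPM for Duroc testis against 1975 ± 207 RPM for Large white testis (mean ± SD, 3 libraries a breed). With TMM the order of the means turned, with 1930 ± 1128 and 1748 ± 295 TMM-normalised RPM, overlap and a log2 fold change of 0.14 (SE 0.39, edgeR adjusted p = 0.902). miR-34c, of the germ cell list, had a log2 fold change of -0.94 (SE 0.59, edgeR adjusted p = 0.430).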

How the data were processed

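Small RNA of 6 testis libraries was made with a TruSeq kit and read single-end, per the labels' protocols. STAR 2.7.10a, Salmon 1.9.0, Bowtie 1.3.1 and susScr11, the Sscrofa11.1 assembly, are named in the submitters' processing notes. Which tool counted miRNAs is not given in the sources used here. Read counts per mature miRNA and precursor, and RPM scaled to their sum over all 845 entries, are as the authors deposited them, per the file headers. For a name on several rows, the row with the most reads was kept, which left 765 names. A name with several precursors is thus counted once, but different names that hold the same or nearly the same reads stay apart. The mean was 1343 RPM for each of miR-9, miR-9-1 and miR-9-2, and 379 RPM for both miR-339 and miR-339-5p. Such names count separately in the places by abundance, the totals and the shares of names.

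Counts of the 421 names that passed the filter entered edgeR 4.0.16 under R 4.3.3 (glmQLFTest, TMM scaling, breed as the sole term, Benjamini-Hochberg adjustment, threshold 0.05). The scale factor was 0.464 in Duroc library 1 and 0.792 to 1.36 in the others. The SE of a fold change was approximated by dividing it by the root of F. Arm ratios were tested with library, arm and arm by breed as terms over the 65 miRNAs with both arms tested, with 0.5 added to reads where a log2 ratio was taken. DESeq2 1.42.0 and limma 3.58.1 were alternatives, and both edgeR fits were tested on simulated counts. Wilson intervals are from scipy 1.17.1. The RNA libraries were not used. Sequences of the arms are not printed here.

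The 2 arms, the lists and the tests were chosen with earlier results of these data known. Named miRNAs were, by rule, the closest 5 to each arm, the 2 most abundant of each list and any that passed, and the 5 arm pairs with the most reads; abundance neighbours, the most alike arm ratios, the least alike miRNA (miR-9) and list members without overlap on the TMM scale (miR-27a, miR-218, miR-218-5p, miR-16, miR-92a, miR-424-5p) were named after their values were seen. miRNAs of near-identical sequence can share reads.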

Additional observations from a re-analysis of the deposited data

How the results depend on the processing

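No setting called either arm or the arm ratio of miR-126, and the sign of the small fold changes was not stable. miR-126-3p, 0.27 with TMM, was -0.42 with library totals, -0.40 with limma at either pseudocount, -0.058 with Duroc library 2 alone and -0.14 with totals less miR-143-3p, a setting chosen after seeing the data. miR-126-5p, 0.02 with TMM, was -0.71, -0.67 and -0.67, -0.45 and -0.42 under the same settings, -0.026 with every entry as deposited, and -0.17 to 0.19 when 1 library was left out (below 0 without Duroc library 1 or Large white library 3). The cause was not tested. The count of names called, 0 by edgeR, was 14 by DESeq2, 5 without the filter, 1 with Duroc library 2 alone and 0 to 65 when 1 library was left out, with 65 without Duroc library 2 and 1 without Duroc library 3. The arm pairs called, 0 by edgeR, were 2 when both arms needed 10 reads in every library, which tests fewer pairs, and 0 to 5 when 1 library was left out, with 3 without Duroc library 1 and 5 without Duroc library 2. The arm ratio of miR-126 was below 0 in each of its 10 alternatives. The deposited RPM of each arm was lower in Duroc in each of its 8 alternatives. For the arm ratio and the RPM of miR-126-5p the breeds did not overlap, so leaving libraries out could not change the sign. All the RPM alternatives kept scaling to library totals, so they do not test the choice of scaling.

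Replicate numbers do not pair the breeds in the labels, and deviations of same-numbered libraries correlated at -0.24, -0.13 and -0.06, with 0 of 6 libraries closest to their own number. With the replicate block, miR-126-5p was at -0.018 and 1 name was called. The smallest count of either arm was 1006 reads, far above the floor of 3 reads.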
